A study of Mus musculus with 38 samples.

Results

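Hypoxic macrophages that had grown with glioma cells were compared with hypoxic macrophages that had grown alone, using 5 of the 38 mouse RNA libraries of the series. The comparison holds 3 co-culture libraries and 2 monoculture libraries. All are from primary bone marrow-derived macrophages (BMDM) of wild-type mice, kept for 16 h below 0.1% oxygen. In the co-culture the macrophages had been seeded onto GL261 cells, a mouse glioma line that stably carried the plasmid pEGFP-N1, at a ratio of 1 to 1. The corresponding normoxic groups, with 3 co-culture and 2 monoculture libraries at 21% oxygen, were used as a reference and shared the model. The labels do not say how macrophages were taken from the mixed culture, so each gene was classed by its level in GL261. A gene whose mean level in CPM, the usual scaling of counts to the library total, was at least 4-fold higher in GL261 grown alone in hypoxia than in BMDM grown alone in hypoxia is called partner-high here. Of 55487 genes in the table, 14806 had enough counts to be tested. Of these, 2927 were partner-high and are described separately, and the 11879 others are the subject of what follows.

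Macrophages are a large part of the cells in gliomas, where many of them lie in poorly oxygenated tissue. Type I interferons, released after viral or self nucleic acid is sensed, signal from their receptor to the interferon-stimulated response element, a DNA element read as GAAANNGAAA, and switch on a set of antiviral effector genes. Type IV collagen is the network-forming collagen of basement membranes, and lysosomes are the compartment in which macrophages break down what they engulf.

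Genes were called when the adjusted p of the quasi-likelihood F test of edgeR, adjusted by Benjamini-Hochberg over all tested genes, was under 0.05. Over all tested genes 7.11% were called. Outside the partner-high class 100 genes rose in co-culture, which is 0.842% of those tested, and 448 fell, which is 3.77%. The median log2 fold change was 1.19 over the genes that rose and -0.79 over those that fell, against -0.07 over all 11879 genes. The call was at least 2-fold for 62 of the rises and 108 of the falls. In each of the 548 called genes the 3 co-culture libraries lay on 1 side of both monoculture libraries, which was also true of 39.0% of all genes outside the partner-high class. At an unadjusted p under 0.05 edgeR gave 734 genes higher and 1701 lower. The Wald test of DESeq2, at an adjusted p under 0.05, gave 299 higher and 722 lower. Counts by list below stand beside these totals of each tool. Both monoculture libraries were needed for most calls. Without the first, 1 gene was called higher and 4 lower, and without the second 1 and 0. Leaving out co-culture library 1, 2 or 3 gave 221, 131 and 26 rises and 808, 297 and 127 falls. With the adjustment taken over genes outside the partner-high class alone, chosen after seeing the data, 23 rose and 142 fell.

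The share of GL261 RNA was estimated from 135 genes that are nearly specific to GL261, as the median ratio of their CPM to that in GL261 alone. It came to 1.69%, 3.22% and 6.38% in hypoxic co-culture libraries 1 to 3, or 3.76% ± 2.39 (SD, n = 3), and to 0.0321% and 0.0365% in the hypoxic monocultures. In bulk libraries fewer cells of a type and less RNA per cell cannot be told apart. The estimated GL261 contribution was a median of 1.48% of the rise over the 100 genes, 24.3% at most, and in 0 of them was it most of the rise. The class rule bounds it, since genes at least 4-fold higher in GL261 were set aside. At 4-fold the largest share gives a 1.19-fold rise, 0.253 on the log2 scale, and the smallest called rise was 0.501. Small contributions, here and for single genes below, therefore follow largely from the rule and are no test of GL261 RNA. The estimate takes GL261 cells in co-culture to hold each gene at its level in GL261 alone, which was not tested. Subtracting the estimated share from each co-culture library before the fit gave 23 rises and 79 falls. The share as a covariate gave 11 and 20. The removal that follows takes no GL261 reads out of a remaining gene. Beyond these fits and estimates, the part of GL261 RNA in single rises was not tested. When partner-high genes were removed before scaling and testing, 21 genes rose and 54 fell, which is 0.177% and 0.456% of the 11855 then tested. All of these were among the 100 and 448. Genes are named below as called in the full table, and whether they stayed called after that removal is said for the main ones. The labels call the replicates biological without saying whether they were separate cultures or animals, so p-values measure the spread between these libraries.

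**Figure D1:**
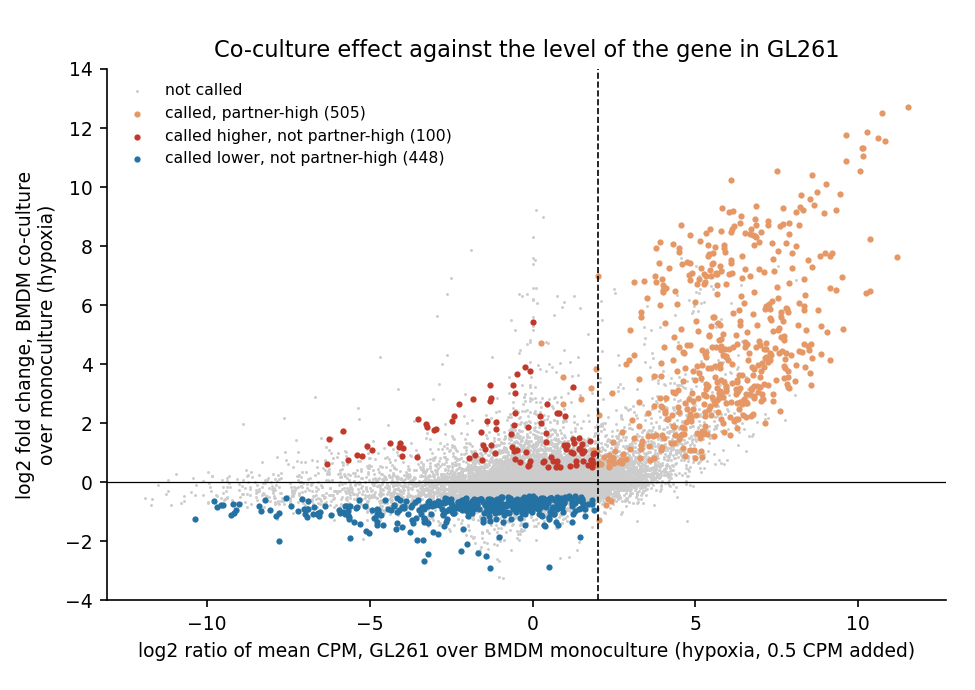
Log2 fold change of co-culture against monoculture in hypoxia for each tested gene, plotted against the log2 ratio of its CPM in GL261 alone to its CPM in BMDM alone (0.5 CPM added to both), with called genes coloured by class and a dashed line at 4-fold. Most called rises lie in the partner-high class, where 501 of 2927 genes rose, while outside it 100 genes rose and 448 fell. The class is defined on the BMDM level that is also the baseline of the fold change.

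The plot of fold change against the GL261 ratio shows the 2 classes. Called rises were most frequent among partner-high genes, and called falls lay almost wholly outside that class. The class is set by a low level in hypoxic BMDM alone, which is also the baseline of the fold change. Some members, such as Sox10, had no counts in the monocultures and passed the low-count filter through other libraries. This order was therefore in part fixed by the rule and the filter. Genes 2 to 4-fold higher in GL261 but not partner-high were counted with genes that had no counts in either hypoxic monoculture. Of these 2552 were tested, and 30 rose and 30 fell.

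The interferon-stimulated effector genes were the list with the most called rises. Of 40 genes in the list, all passed the filter on low counts, 5 were partner-high, and of the 35 others 10 rose and 0 fell. Over all genes outside the partner-high class 0.842% rose and 3.77% fell. The called genes were Isg15, Bst2, Ifit1, Ifit3, Ifit3b, Mx1, Rsad2, Rtp4, Ifi35 and Oas1g. The median log2 fold change over the 35 was 0.75, against -0.07 for all genes outside the partner-high class, and 34 of the 35 were positive. In 21 of them all 3 co-culture libraries lay above both monocultures, as in 1598 of all 11879 genes outside the partner-high class. DESeq2 called 16 of the 35 higher, and 299 genes over all genes outside the class. Without co-culture library 3 edgeR called 4 of the 35 and without library 2 it called 13. Over all genes outside the class these fits gave 26 and 131 rises. The promoter sequences of the called members are shown first, since they are the part of these genes that the interferon pathway is known to act on. The 200 bases upstream of the RefSeq start site (GRCm38.p6) are printed 5′ to 3′ on the gene's own strand for 5 of them, in which no other annotated gene overlaps. Matches to GAAANNGAAA on either strand (TTTCNNTTTC when it lies on the other) are in capitals, and overlapping matches run together.

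Isg15, chr4:156200819-156201018, strand -: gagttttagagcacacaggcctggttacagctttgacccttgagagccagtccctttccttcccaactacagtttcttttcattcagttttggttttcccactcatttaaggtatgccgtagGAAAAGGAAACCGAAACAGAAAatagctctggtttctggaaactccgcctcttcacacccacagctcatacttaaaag
Bst2, chr8:71537473-71537672, strand -: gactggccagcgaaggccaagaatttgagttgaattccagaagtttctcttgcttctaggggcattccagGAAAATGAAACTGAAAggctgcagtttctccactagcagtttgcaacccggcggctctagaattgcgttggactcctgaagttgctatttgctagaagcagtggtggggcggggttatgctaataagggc
Ifit3, chr19:34583329-34583528, strand +: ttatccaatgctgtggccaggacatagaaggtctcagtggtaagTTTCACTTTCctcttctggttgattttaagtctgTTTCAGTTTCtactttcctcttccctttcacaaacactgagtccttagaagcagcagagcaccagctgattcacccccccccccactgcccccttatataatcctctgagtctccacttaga
Rsad2, chr12:26456453-26456652, strand -: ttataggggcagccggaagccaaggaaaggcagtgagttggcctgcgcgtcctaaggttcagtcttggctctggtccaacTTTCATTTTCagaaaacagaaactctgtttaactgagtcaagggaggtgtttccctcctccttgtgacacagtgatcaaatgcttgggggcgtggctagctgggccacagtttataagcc
Oas1g, chr5:120887614-120887813, strand -: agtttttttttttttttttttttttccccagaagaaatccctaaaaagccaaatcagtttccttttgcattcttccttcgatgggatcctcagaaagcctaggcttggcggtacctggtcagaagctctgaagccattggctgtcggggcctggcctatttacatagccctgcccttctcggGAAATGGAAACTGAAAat

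Isg15 held 3 overlapping matches in this window, starting 78, 72 and 66 bases before the start site, Bst2 and Oas1g held 2 overlapping ones each, Ifit3 held 2 separate ones, and Rsad2 held 1. In the RefSeq windows from 250 bases before to 50 after a start site, 7 of the 8 called effector genes with an entry had a match, and 17 of the 28 listed genes outside the partner-high class with an entry. Over all 32851 windows of the same length the share with a match was 3.44%. Among genes that rose outside the partner-high class 14 of 73 with an entry had one, among those that fell 9 of 349, and among all tested genes outside the class 338 of 8303. Ifi35 and Irf7 had an entry and no match in that window. A match is a description of letters and shows no binding.

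Isg15, a ubiquitin-like protein that is conjugated to other proteins, had 11.4 and 13.96 CPM (scaled by TMM factors, as are the values per library that follow) in the monocultures and 67.2, 70.3 and 56.4 CPM in the co-cultures. The 3 co-culture libraries lay close together and far above both monocultures. It was higher by 2.35 on the log2 scale (SE 0.21, edgeR adjusted p = 0.000916), and it was called in every alternative run for it, with log2 fold changes from 2.20 to 2.61. Irf7, the transcription factor that amplifies interferon production, had 37.5 and 46.0 CPM alone and 238, 124 and 152 CPM in co-culture, higher by 2.04 on the log2 scale (SE 0.39, edgeR adjusted p = 0.0153). All 3 co-culture libraries were well above the monocultures. Mx1, a dynamin-like GTPase that blocks influenza viruses, had only 1.02 and 2.07 CPM alone and 16.6, 6.40 and 9.06 CPM in co-culture (log2 fold change 2.76, SE 0.64, edgeR adjusted p = 0.0295). Bst2, which tethers budding virus to the cell surface, was the most abundant of the called effectors, at 141 and 128 CPM alone and 345, 227 and 285 CPM in co-culture (log2 fold change 1.08, SE 0.18, edgeR adjusted p = 0.00912). Groups did not overlap for any of these 4 genes, as in every called gene outside the partner-high class.

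Ifit3, one of the tetratricopeptide proteins that bind viral RNA, had 6.04 and 6.91 CPM alone and 49.99, 18.9 and 22.8 CPM in co-culture. Its count is uncertain, since 41.1% of its 75-base words are shared with Ifit3b. Ifit1, of the same family, had 5.46 and 6.01 CPM alone and 23.7, 11.3 and 19.7 CPM in co-culture. Rsad2, which makes an antiviral nucleotide, varied more between co-culture libraries, at 70.9, 18.3 and 49.4 CPM against 10.6 and 15.5 CPM alone (edgeR adjusted p = 0.0461). For Irf7, Mx1, Bst2, Ifit1, Ifit3 and Rsad2 the highest co-culture library was number 1, the one with the lowest GL261 share. For Isg15 it was number 2. The part of the share in this order was not tested. In GL261 alone Isg15 had 20.5 CPM, Irf7 17.1 CPM, Bst2 88.2 CPM and Mx1 0.258 CPM. The estimated GL261 contribution was 1.51% of the rise of Isg15, 0.5001% for Irf7, 0.108% for Mx1 and 2.13% for Bst2. These estimates use the levels in GL261 alone. In GL261 from hypoxic co-culture with BV2 microglia the levels were higher, at 32.8 CPM for Isg15, 43.2 for Irf7, 0.659 for Mx1 and 115.5 for Bst2. Of the 10 called effectors 4 stayed called when partner-high genes were removed before the fit, among them Isg15 (adjusted p = 0.000883 in edgeR) and Bst2 (0.0222). Irf7 stayed called as well (0.0330), and Mx1 did not (0.0591). The log2 fold change of Mx1 after removal was 2.85, with an edgeR unadjusted p of 0.000728 against 0.00114 in the full table. Its adjusted p then came from the 11855 genes left, without the partner-high calls, so the lost call is not a smaller rise.

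**Figure D2:**
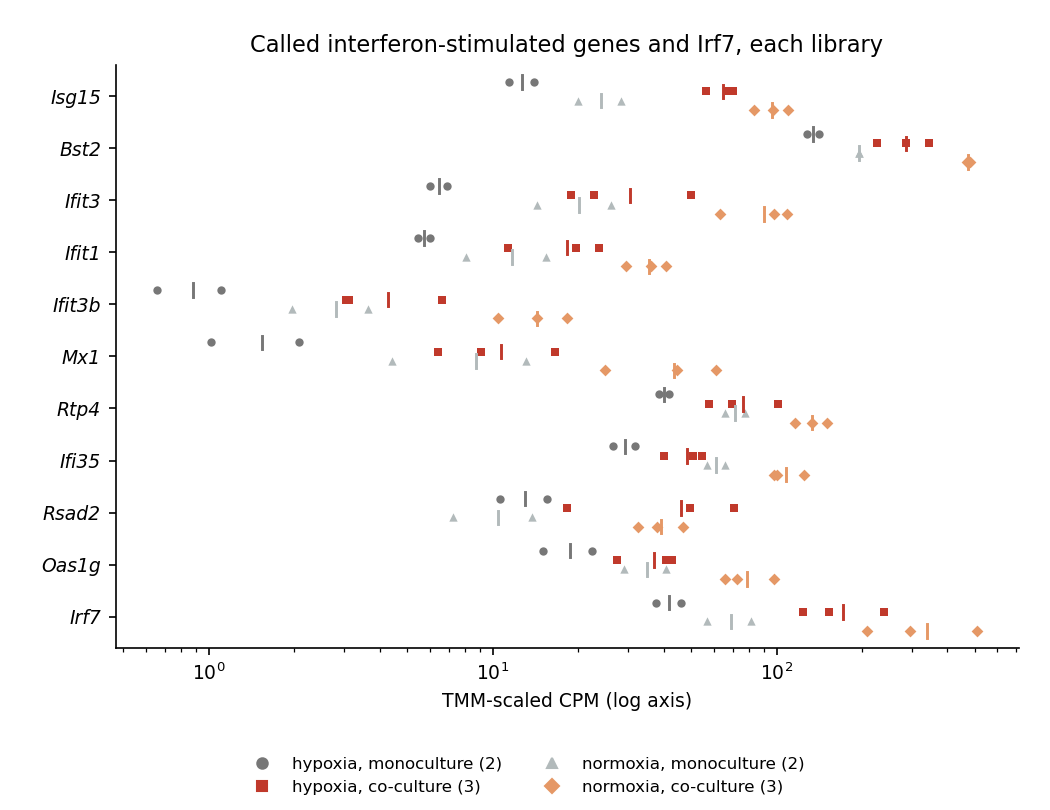
TMM-scaled CPM on a log axis of the 10 called interferon effectors and Irf7 in each BMDM library, with group means as vertical bars. Isg15 lies at 11.4 and 13.96 CPM in the hypoxic monocultures and between 56.4 and 70.3 CPM in the hypoxic co-cultures, and the normoxic groups are separated in the same direction.

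As the plot of interferon genes by library shows, the normoxic groups were ordered the same way. Isg15 was at 19.9 and 28.2 CPM in the normoxic monocultures and at 97.1, 109 and 83.0 CPM in the normoxic co-cultures (log2 fold change 2.01, edgeR adjusted p = 0.00234), and Irf7 rose by 2.29 on the log2 scale (edgeR adjusted p = 0.0178). Of the 35 effectors 9 were called higher in normoxia, with a median log2 fold change of 0.92. The regulators of the pathway moved less uniformly. Of 22 interferon regulators outside the partner-high class only Irf7 was called by edgeR, with a median log2 fold change of 0.01 and 11 positive and 11 negative values, and DESeq2 called 3 higher and 1 lower. Of 19 nucleic acid sensors 2 rose, Ifi203 (log2 fold change 0.90) and Ifi211 (1.16), both from the interferon-inducible cluster of chromosome 1, with a list median of 0.15, and DESeq2 called 5 higher. They share sequence with neighbours, Ifi211 in 63.6% of its 75-base words, so their counts are uncertain.

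Of the antigen presentation lists edgeR called 1 gene each, while DESeq2 called 5 higher in class I and 3 in class II. In the class I pathway 1 of 22 genes rose, Psme2, a subunit of the proteasome activator, from 77.6 and 70.3 CPM to 98.8, 128 and 126 CPM (log2 fold change 0.67, edgeR adjusted p = 0.0284), and the list median was 0.41 with 18 positive values. In the class II list 1 of 14 rose, Cd74, the invariant chain that guides class II molecules, from 134 and 148 CPM to 205, 259 and 338 CPM (log2 fold change 0.93, edgeR adjusted p = 0.0215), with a list median of 0.45. Neither group of libraries overlapped the other for these genes, as in every called gene outside the partner-high class. The 3 co-culture values of Cd74 lay in the order of the GL261 share. Its level in GL261 alone was 2.56 CPM and the estimated contribution was 0.0723% of its rise. With the estimated share subtracted before the fit its log2 fold change was 1.07 (edgeR adjusted p = 0.0526). The part of the share was not tested beyond this. Among 33 macrophage identity genes Aif1, an actin-binding protein of macrophages and microglia, rose from 17.6 and 19.1 CPM to 51.8, 27.4 and 49.1 CPM (log2 fold change 1.22, edgeR adjusted p = 0.0202) and was listed at 0 CPM in GL261. Itgax, the integrin CD11c, which stood in both the lipid-associated and the complement list, rose from 7.06 and 11.8 CPM to 22.2, 18.9 and 23.04 CPM (log2 fold change 1.18, edgeR adjusted p = 0.0165) and in normoxia by 1.96.

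The other largest rises, among genes with at least 10 CPM in the higher group, belonged to no single list. Wdr66, a protein of motile cilia, had 3.78 and 3.45 CPM alone and 11.9, 34.5 and 30.3 CPM in co-culture (log2 fold change 2.82, edgeR adjusted p = 0.0296). Siglece, a sialic acid receptor that inhibits myeloid cells, had 8.66 and 4.77 CPM alone and 13.9, 52.6 and 28.2 CPM in co-culture (log2 fold change 2.24). Spic, a transcription factor of iron-recycling macrophages, had 6.84 and 4.84 CPM alone and 13.2, 26.95 and 37.95 CPM in co-culture (log2 fold change 2.16, edgeR adjusted p = 0.0152). In each of these the 2 higher co-culture libraries were numbers 2 and 3. Fas, the death receptor, had 13.97 and 10.99 CPM alone and 20.1, 57.3 and 81.2 CPM in co-culture, which is 2.09 on the log2 scale (edgeR adjusted p = 0.0303). Hpn, a membrane serine protease, rose by 2.08 (edgeR adjusted p = 0.00952). The co-culture values of Spic, Fas and Hpn lay in the order of the GL261 share. Their levels in GL261 alone were 0, 1.62 and 1.61 CPM, and the estimated contribution to the rise was 0%, 0.151% and 0.333%. With the estimated share subtracted before the fit their log2 fold changes were 2.32, 2.25 and 2.23. The edgeR adjusted p-values of that fit were 0.0427, 0.0654 and 0.0259. The part of the share was not tested beyond this. Adgb, a globin-fold protein, and Ccr3, a chemokine receptor, rose by 1.98 and 1.87.

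**Figure D3:**
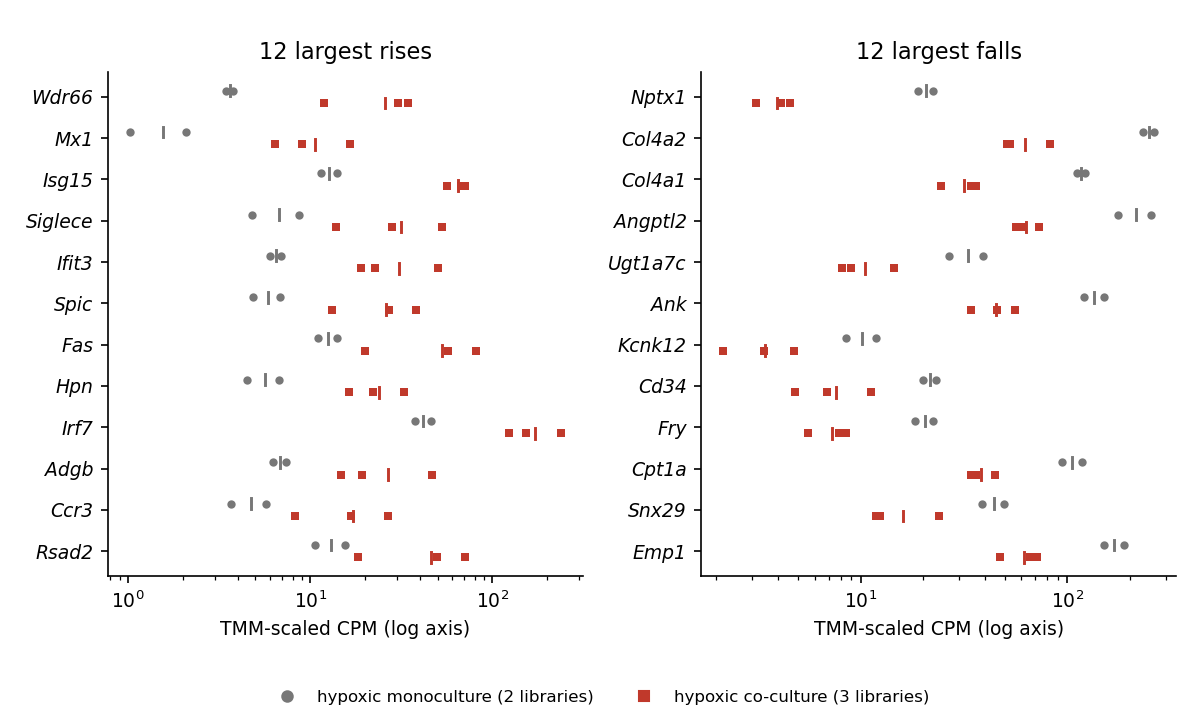
TMM-scaled CPM on a log axis in the 5 hypoxic libraries for the 12 largest called rises and the 12 largest called falls outside the partner-high class with at least 10 CPM in the higher group, with group means as vertical bars. Each gene's 3 co-culture points lie on 1 side of its 2 monoculture points, which was a condition for choosing these genes. It was also true of 39.0% of all genes outside the class.

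The plot of the largest changes sets the rises beside the falls. With the same 10 CPM minimum the falls were led by Nptx1, a secreted pentraxin known from synapses, with 19.1 and 22.4 CPM alone and 4.12, 4.54 and 3.13 CPM in co-culture. Its log2 fold change was -2.39 (SE 0.28, edgeR adjusted p = 0.00416), and it was called in normoxia too, at -2.41.

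Both chains of the most widespread type IV collagen fell together. Col4a2 had 233 and 264 CPM alone and 82.7, 50.8 and 53.0 CPM in co-culture (log2 fold change -2.00, SE 0.33, edgeR adjusted p = 0.00923). Col4a1 had 111 and 122 CPM alone and 36.3, 24.6 and 34.1 CPM in co-culture (log2 fold change -1.88, SE 0.26, edgeR adjusted p = 0.00559). The groups were far apart for both, and GL261 alone held 1.68 CPM of Col4a1 and 0.507 CPM of Col4a2. The start sites of the pair lie 21 bases apart on opposite strands of chromosome 8, and the gene models overlap there. Both were also called in normoxia, at -1.50 for Col4a2 (edgeR adjusted p = 0.0488) and -1.53 for Col4a1 (0.0162). Lamc1, the laminin chain of the same membranes, fell from 118 and 124 CPM to 72.0, 52.5 and 62.2 CPM (log2 fold change -0.96, edgeR adjusted p = 0.00923), while GL261 alone held 269.9 CPM. The matrix and collagen list had 31 genes, of which 15 were partner-high. Of the 16 others these 3 fell, 0 rose, and the list median was 0.07. Among partner-high members of that list 5 rose. Of 13 proteases and inhibitors outside the class 1 fell, Adam9, a membrane metalloprotease (log2 fold change -0.88), with a list median of -0.44. DESeq2 gave 4 falls in the matrix list and 2 among the proteases.

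Plin2, the coat protein of lipid droplets, had 1039 and 1055 CPM alone and 495, 521 and 467 CPM in co-culture (log2 fold change -1.08, SE 0.14, edgeR adjusted p = 0.00513). Cpt1a, which admits long-chain fatty acids to the mitochondrion, had 94.1 and 117 CPM alone and 44.5, 34.2 and 36.2 CPM in co-culture (log2 fold change -1.47, SE 0.16, edgeR adjusted p = 0.00328). Both stayed called after removal of partner-high genes, with adjusted p of 0.0222 for Plin2 and 0.00693 for Cpt1a in edgeR. Nceh1, a hydrolase of cholesterol esters, fell from 194 and 217 CPM to 139, 99.9 and 83.5 CPM (log2 fold change -0.93). Of 23 genes of lipid-associated macrophages 1 rose and 2 fell by edgeR, with a median of -0.33. DESeq2 gave 1 rise and 9 falls there, and 299 and 722 over all genes outside the partner-high class. Single genes fell in the lists of sterol efflux targets of LXR (Smpdl3a, a secreted phosphodiesterase, -0.60, 1 of 11, median -0.11) and scavenger receptors (Colec12, a scavenger receptor with a collagen-like domain, -1.01, 1 of 23, median -0.24). DESeq2 gave 1 fall in the efflux list, and 1 rise and 3 falls among scavenger receptors.

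Lysosomal genes had 5 falls of 35 and no rise by edgeR, where 3.77% of all genes outside the partner-high class fell. DESeq2 gave 10 falls among the 35, and 722 over all genes outside the class. Lamp1, a main glycoprotein of the lysosomal membrane, had 1204 and 1200.4 CPM alone and 792, 523 and 716 CPM in co-culture (log2 fold change -0.83, edgeR adjusted p = 0.0255). Gusb, which cleaves glucuronides, had 348 and 315 CPM alone and 186, 142 and 189.7 CPM in co-culture (log2 fold change -0.94, edgeR adjusted p = 0.0133). Both groups were well apart for both genes. Gla, an alpha-galactosidase, fell by 0.84 on the log2 scale, Npc1, the cholesterol exporter, by 0.56, and Psap, the precursor of the saposins, by 0.67. The median over the 35 was -0.38, 28 were negative, and in 21 all 3 co-culture libraries lay below both monocultures, as in 3037 of all 11879 genes. In normoxia 0 of the 35 were called and the median was 0.02. After removal of partner-high genes 0 of the 5 stayed called in edgeR, with log2 fold changes of -0.84 for Gusb (adjusted p = 0.0538), -0.74 for Gla (0.0643), -0.73 for Lamp1 (0.0722), -0.46 for Npc1 (0.0965) and -0.58 for Psap (0.108). Without co-culture libraries numbered 2 at both oxygen levels, an alternative chosen after seeing the data, 3 fell, and 2 without hypoxic co-culture library 3. Over all genes outside the class these fits gave 446 and 127 falls.

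Signals and receptors fell singly. Tgfbi, a matrix protein induced by TGF-beta, had 713 and 1006 CPM alone and 460.5, 298 and 462 CPM in co-culture (log2 fold change -1.08, edgeR adjusted p = 0.0169), and Tgfbr2, the TGF-beta receptor, fell by 0.94. Pdgfb, a growth factor for mesenchymal and glial cells, fell by 0.86 and Havcr2, the checkpoint receptor TIM-3, by 1.06. Angptl2, a secreted angiopoietin-like protein, had 175 and 254 CPM alone and 72.9, 60.2 and 56.8 CPM in co-culture (log2 fold change -1.76, SE 0.25, edgeR adjusted p = 0.00610). Its groups did not overlap, as in every called gene outside the partner-high class. Of 25 cytokines and growth factors 2 fell and 0 rose, with a median of 0.46, and of 21 checkpoint genes 1 rose and 2 fell, with a median of -0.02. DESeq2 gave 1 rise and 2 falls among the cytokines and 2 of each among the checkpoint genes. The rest of the 12 largest falls were Ugt1a7c, a glucuronosyltransferase (-1.64), Ank, a pyrophosphate transporter (-1.58), Kcnk12, a potassium channel (-1.57), Cd34, a sialomucin of progenitors (-1.52), Fry (-1.49), Snx29 (-1.46) and Emp1, an epithelial membrane protein (-1.46). The count of Ugt1a7c is uncertain, since 52.5% of its 75-base words are shared, chiefly with Ugt1a6a.

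Inflammatory genes under NF-kB had mostly positive values, and the number called differed between tools. Of 26 NF-kB feedback genes outside the partner-high class 2 rose by edgeR and 9 by DESeq2. Over all genes outside the class 0.842% rose by edgeR, and 299 genes by DESeq2. The list median log2 fold change was 0.97 with 24 positive. Nfkb2, the subunit of the non-canonical pathway, had 114 and 113 CPM alone and 150.5, 301 and 229 CPM in co-culture (log2 fold change 1.00, edgeR adjusted p = 0.0442). Bcl3, a nuclear partner of NF-kB, had 50.1 and 37.7 CPM alone and 69.1, 70.1 and 98.7 CPM in co-culture (log2 fold change 0.85, edgeR adjusted p = 0.0433). GL261 alone held 378 CPM of Nfkb2, and the estimated contribution was 12.3% of its rise and 5.94% of that of Bcl3. Nfkbia, the inhibitor induced by NF-kB, had 282 and 388 CPM alone and 449, 864 and 675 CPM in co-culture and was not called (log2 fold change 0.98, edgeR adjusted p = 0.0679). Without co-culture libraries numbered 2 at both oxygen levels the list median was 0.61 and 4 genes rose, and without hypoxic co-culture library 3 edgeR called 0. Over all genes outside the class these fits gave 196 and 26 rises.

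Of 24 chemokines outside the partner-high class 0 were called by edgeR and 2 rose by DESeq2, and the median was 0.25. At an unadjusted p under 0.05 in edgeR 5 were higher and 1 lower, beside 734 and 1701 of all 11879 genes outside the class. Ccl3 had 113 and 116 CPM alone and 241, 1115 and 202 CPM in co-culture (log2 fold change 2.18, edgeR adjusted p = 0.0877), and Cxcl2, a neutrophil attractant, 407 and 426 CPM alone and 573, 3318 and 1052 CPM in co-culture (1.98, 0.222). Both were above the monocultures in all 3 co-culture libraries, with library 2 far above the other 2. Cxcl2 shares 4.57% of its 75-base words with Cxcl3.

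Of 40 targets of the hypoxia-inducible factors outside the partner-high class 0 rose and 1, Plin2, fell by edgeR, with a median of -0.22; DESeq2 gave 0 and 5. Vegfa, the main angiogenic factor of hypoxic cells, had 766 and 687 CPM alone and 858, 858 and 816 CPM in co-culture (log2 fold change 0.22, edgeR adjusted p = 0.647). Slc2a1, the glucose transporter, had 1879.8 and 1840.3 CPM alone and 1449, 2249 and 1544 CPM in co-culture (-0.09, 0.876). Of 25 glycolysis genes 0 were called by edgeR, 5 fell by DESeq2 and 8 were lower and 0 higher at an unadjusted p under 0.05 in edgeR. Over all 11879 genes outside the partner-high class 1701 were lower and 734 higher at that threshold. The glycolysis list had a median of -0.22. The pyruvate kinase Pkm had 10041 and 9942 CPM alone and 7214, 7617 and 6998 CPM in co-culture and missed the threshold (log2 fold change -0.46, edgeR adjusted p = 0.0633). The aldolase Aldoa had a log2 fold change of -0.11. Without co-culture libraries numbered 2 at both oxygen levels, 7 hypoxia targets and 5 glycolysis genes fell, beside 446 of all genes outside the partner-high class. Of 36 nuclear-encoded respiratory subunits 0 were called by edgeR and 1 rose by DESeq2. At an unadjusted p under 0.05 in edgeR 3 were higher and 5 lower, beside the 734 and 1701 of all 11879 genes. The median was -0.05, with Atp5b at -0.19 and Atp5a1 at -0.49.

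The remaining lists had at most 1 call each by edgeR. DESeq2 gave 2 falls in DNA replication, 1 rise and 1 fall among immediate early genes, 2 falls among NRF2 genes, 4 rises in the stress responses, 3 rises and 4 falls among identity genes, and 1 rise and 2 falls in complement. In DNA replication 1 of 27 fell, Mcm6, a subunit of the replicative helicase (log2 fold change -0.87), with a median of -0.24. Of 22 mitosis genes edgeR called 0 and DESeq2 1, and 3 were lower and 0 higher at an unadjusted p under 0.05 in edgeR. Over all 11879 genes outside the partner-high class 1701 were lower at that threshold. All 22 had negative values, and the median was -0.43, with Mki67 at -0.47 and Top2a at -0.18. Of 29 immediate early genes 1 fell, Zfp36l2, which marks messenger RNA for decay (-0.96, median 0.03). Among 21 antioxidant genes under NRF2 1 fell, Taldo1, an enzyme of the pentose phosphate route (-0.53, median -0.14). Of 24 genes of the unfolded protein and integrated stress responses 1 rose, Nupr1, a stress-induced chromatin protein, from 76.6 and 84.8 CPM to 101, 166 and 135 CPM (log2 fold change 0.73, edgeR adjusted p = 0.0401). The list median was 0.44 with 22 positive, and 0.06 without co-culture library 2, when 0 were called. The identity list had a median of -0.16 over 33 genes and the complement list of 0.15 over 14, with Itgax the 1 called gene there.

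The co-culture effect was then set beside that in normoxia, whose groups share no library with the hypoxic ones. Same-numbered co-culture libraries still correlated across oxygen levels, at 0.455, 0.244 and 0.407 in deviations from group means. Both oxygen levels also held GL261 RNA and the trend over transcript length given below. The comparisons therefore cannot be taken as independent. In normoxia 51 genes outside the partner-high class rose, which is 0.429%, and 10 fell, which is 0.0842%. These 61 calls became 148 with the replicate number as a block and 239 with DESeq2. Of the 100 genes that rose in hypoxia, 95 had a positive log2 fold change in normoxia and 20 were called there, which is 39.2% of the 51 normoxic rises. Of the 448 that fell, 432 had a negative one and 7 were called. Over all genes outside the class 48.3% were positive and 51.6% negative in normoxia. The median normoxic log2 fold change was 0.85 for the genes that rose in hypoxia and -0.34 for those that fell. By the interaction term in edgeR 0 genes passed the test for a co-culture effect that differs between oxygen levels, with 636 at an unadjusted p under 0.05, 480 of them outside the partner-high class. The count was 0 with the replicate block too, and 9 by DESeq2.

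**Figure D4:**
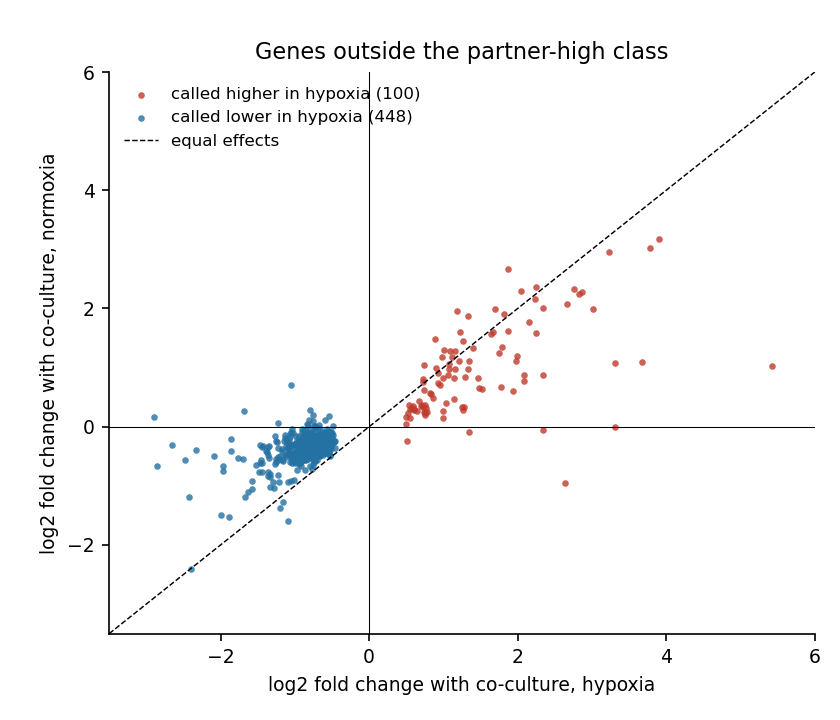
Log2 fold change of co-culture against monoculture in normoxia plotted against that in hypoxia for the 548 genes outside the partner-high class called in hypoxia, with a dashed line where both effects are equal. Of the 100 rises 95 lie above 0 in normoxia and of the 448 falls 432 lie below 0, the falls with a smaller normoxic median of -0.34.

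The plot of the 2 oxygen levels shows where single genes lay apart. Plin2 had 593 and 534 CPM alone and 481, 491 and 391 CPM in co-culture in normoxia (log2 fold change -0.31, edgeR adjusted p = 0.405), Angptl2 had a log2 fold change of -0.53 there and Fas of 0.77, and none of the 3 passed the interaction test between oxygen levels. The smallest interaction p-values outside the partner-high class belonged to Runx3, Mgst1 and Slamf9. Runx3, a transcription factor of lymphoid and myeloid cells, had 58.7 and 67.0 CPM alone and 70.2, 53.8 and 62.1 CPM in co-culture in hypoxia, and 7.06 and 7.56 against 18.4, 18.3 and 19.4 CPM in normoxia. The hypoxic groups overlapped and the normoxic ones did not (interaction adjusted p = 0.364 in edgeR). Mgst1, a membrane glutathione transferase, had log2 fold changes of -1.05 in hypoxia and 0.71 in normoxia, and Slamf9, a surface receptor of myeloid cells, of -0.43 and 1.02.

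Among partner-high genes 501 rose, 17.1% of those tested, and 4 fell, so that 83.4% of all called rises were in this class. The estimated GL261 share corresponded to a median of 59.5% of their rise. The class rule asks for a low level in BMDM alone, the baseline here, so the excess of rises was in part set by it. Col2a1, a cartilage collagen, had 0.582 and 3.45 CPM alone and 197, 316 and 698 CPM in co-culture, and 5396 CPM in GL261. Sparc, a matricellular protein, had 30.3 and 46.8 CPM alone and 156, 254 and 462 CPM in co-culture. Both rose in the order of the GL261 share, and the estimated contribution was 51.3% and 59.4% of the rise. Ddit4, the inhibitor of mTORC1 induced by hypoxia, had 129 and 142 CPM alone and 218, 319 and 328 CPM in co-culture (log2 fold change 1.09), and AI506816, an unnamed locus, had 65.5 CPM in both monocultures and 438, 202 and 524 CPM in co-culture (2.57). The chemokine Cxcl10, an interferon target that is partner-high, had 4.87 and 6.01 CPM alone and 34.3, 37.2 and 67.8 CPM in co-culture against 332 CPM in GL261.

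Markers of other cells were checked alongside. All 12 defining macrophage markers reached 1 CPM in both hypoxic groups. Of these edgeR called 0, and DESeq2 called 1 higher and 1 lower. At an unadjusted p under 0.05 in edgeR 1 was higher and 3 lower, beside 734 and 1701 of all 11879 genes outside the partner-high class. Of 18 glioma and glial markers 14 were tested, 10 were partner-high and 8 of these rose, Sox10 from 0 CPM in both monocultures to 23.3, 45.5 and 86.5 CPM, while Cspg4 and Sox9 fell. The summed plain CPM of the 9 dendritic markers was 5.25 to 6.58 in monoculture and 17.2 to 55.4 in co-culture, nearly all from Fscn1, an actin bundler that is partner-high (167 CPM in GL261). Ccr7, the dendritic marker tested outside the class, was at 0 CPM in both monocultures and at 0.100, 4.91 and 0 CPM in co-culture, so that its signal came from library 2, and it was not called (edgeR adjusted p = 0.186). Neutrophil markers summed to at most 0.889 CPM in the hypoxic groups, mast cell and basophil markers to at most 0.862 CPM, and T and NK cell markers to at most 2.92 CPM. The 9 fibroblast markers summed to 129 to 256 CPM in monoculture and 85.3 to 661 CPM in co-culture, erythroid and megakaryocyte markers to at most 5.95 CPM, B cell markers to 15.01 to 30.8 CPM alone and 3.01 to 12.8 CPM in co-culture, and endothelial markers to 99.8 to 134 CPM alone and 56.9 to 79.9 CPM in co-culture, where Kdr fell. Their part in the results above was not tested.

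Library totals ran from 10262757 to 16252137 counts over the 5 hypoxic libraries, so that 3 counts, the limit that a count of 0 allows, corresponded to 0.185 to 0.292 CPM, for counting error only. Co-culture library 2 stood apart from the other co-culture libraries, where the chi-square of counts over genes, divided by its degrees of freedom, was 70.1 and 72.6, against 26.8 between libraries 1 and 3 and 17.7 between the monocultures. Each is far above sampling noise, so all libraries were counted separately.

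The length of transcripts moved with the co-culture effect. The median length of the longest annotated transcript was 1.99 kb for genes that rose, 4.45 kb for those that fell and 2.95 kb for all tested genes outside the partner-high class, and median GC content was 51.6%, 50.2% and 50.2% in the same order. Genes were split into 4 equal classes by this length. In the class with the shortest transcripts the median log2 fold change was 0.12, 41 genes rose and 23 fell. In the class with the longest it was -0.21, 13 rose and 231 fell. Each hypoxic co-culture library showed it, with a difference between the longest and the shortest class of -0.25, -0.33 and -0.31, and so did the 2 monocultures between themselves, at -0.12 for library 1 against 2. When a trend over length was removed from each library, an alternative chosen after seeing the data, 79 of the 100 genes that rose and 205 of the 448 that fell stayed called, the interferon effectors had 11 rises in place of 10, and the lysosomal genes 3 falls in place of 5.

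**Figure D5:**
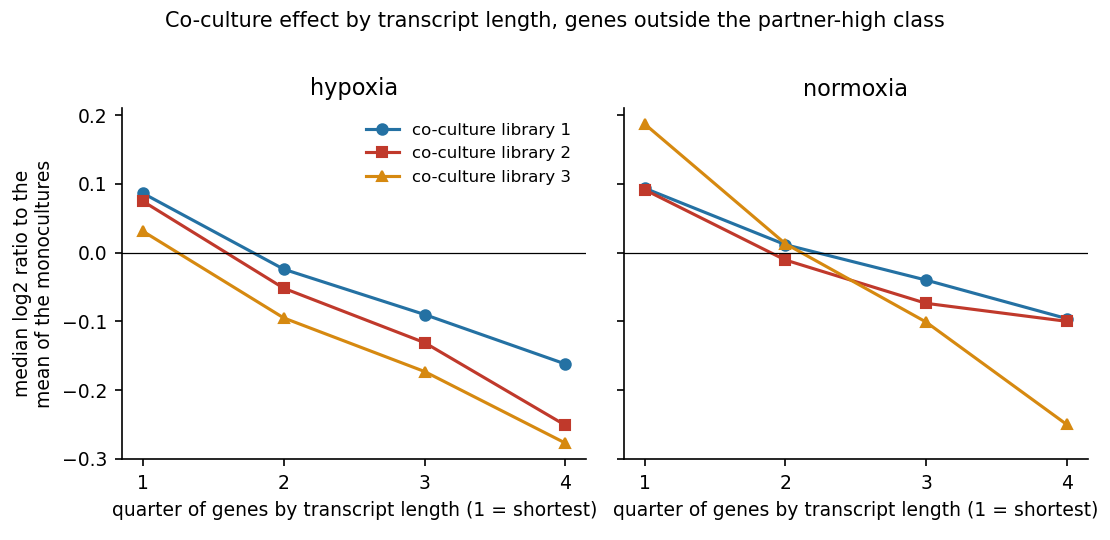
Median log2 ratio of each co-culture library to the mean of the monocultures (y axis) in 4 classes of transcript length from shortest to longest (x axis), for genes outside the partner-high class, in hypoxia on the left and normoxia on the right. All 6 lines go down, in hypoxia from 0.09, 0.07 and 0.03 in the shortest class to -0.16, -0.25 and -0.28 in the longest for libraries 1 to 3.

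The plot by transcript length shows the same direction in each normoxic co-culture library, and the normoxic median log2 fold change went from 0.18 in the shortest to -0.14 in the longest class. What part of the called falls belongs to it was not tested beyond the count that stayed called.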

How the data were processed

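Poly(A) RNA from cells fixed in 3% glyoxal was read as 151-base pairs. The deposited values are raw counts per Ensembl gene; per the submitters' processing notes, which name tools without their roles, the authors used Trimmomatic 0.36, STAR 2.6, SAMtools, HTSeq 0.9.1, deepTools and the mm10 build. Whether counting used strand is not given in the sources used here, so overlapping genes on opposite strands (Col4a1 and Col4a2, Irf7 and Phrf1, Ank and Otulin, Lamp1 and Grtp1, Angptl2 and Ralgps1, Nfkb2 and Psd, Zfp36l2 and AC132455.1) may share reads.

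The 10 BMDM libraries were fitted together in edgeR 4.0.16 (R 4.3.3) with TMM scaling, the default low-count filter (minimum count 10, total 15), a mean per group and the quasi-likelihood F test. The fit was also run on simulated counts with the same spread for every gene, no GL261 difference between libraries and no outlying library. Such counts cannot show how the calls hold where these are present. The biological coefficient of variation was 0.222 with 6 residual degrees of freedom. Alternatives included DESeq2 1.42.0. Members and lists (26 pathway, 10 marker) were chosen with earlier results of these data known. Named genes were the 12 largest rises and 12 largest falls among called genes outside the partner-high class with no overlap, at least 10 CPM in the higher group and no predicted-gene symbol. Added to these were up to 3 called genes per list and direction with the smallest p (or the 2 most abundant where none was called), 4 partner-high genes and 3 by interaction; list members and marker genes beyond these were chosen after their values were seen. Some list members are not reported here. Positions and lengths are from GENCODE M21, and promoters from RefSeq (GRCm38.p6).

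Replicate numbers were not taken as pairs: same-numbered hypoxic monoculture and co-culture libraries correlated at 0.04 and 0.008, and normoxic ones at 0.165 and 0.224. Co-culture libraries with the same number correlated across oxygen levels at 0.455, 0.244 and 0.407, and monocultures at 0.142, so the block is given beside the normoxic count and the interaction.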

Additional observations from a re-analysis of the deposited data

How the results depend on the processing

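Counts of called genes are given as rises and falls outside the partner-high class and rises inside it, from 100, 448 and 501. DESeq2 gave 299, 722 and 700, no filter on low counts 486, 730 and 914, and a mean of at least 5 CPM 60, 139 and 112. A fit of only the compared groups gave 12, 45 and 174, subtraction of the estimated GL261 share 23, 79 and 43, and that share as a covariate 11, 20 and 68. With partner-high genes removed the first 2 counts were 21 and 54. At least 2-fold left 62 and 108. Leaving out each library in turn gave 1 to 221 rises, 0 to 808 falls and 3 to 749 partner-high rises; where this left 1 monoculture library, that library was assumed to vary like the other groups. Of the alternatives chosen after seeing the data, dropping co-culture libraries numbered 3 at both oxygen levels gave 25, 130 and 244. Dropping those numbered 2 gave 196, 446 and 372. Removal of the length trend gave 212 falls, and adjustment outside the partner-high class 23 and 142. The replicate block gave 131, 428 and 494, which is within 1.5 times in hypoxia, but moved the normoxic calls outside the class from 61 to 148, where DESeq2 gave 239 and removal of partner-high genes 20. The interaction count of 0 became 9 with DESeq2 and stayed 0 with the replicate block. With the share as covariate the log2 fold changes of Top2a and Aldoa, neither called, became 0.205 and 0.0803. Of 56 named called genes, 56 were called by DESeq2, 48 with the block, 48 without the length trend, 25 after subtraction and 5 with the covariate. With only the compared groups 19 were called, and with co-culture libraries numbered 3 dropped 25. After removal of partner-high genes 22 of those left stayed called. The causes were not tested. Depth limits genes near 0.185 to 0.292 CPM, the level of 3 counts in the hypoxic libraries.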

Other observations

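Some further single genes that fell in hypoxic co-culture are given here. They were chosen after their values were seen, from among the falls, and stand for no gene group. Plec, a linker of filament systems, had a log2 fold change of -1.01, the intermediate filament protein Vim of -0.91, the actin crosslinker Flna of -0.90, and the cytoplasmic actin Actg1 of -0.87. Smaller called falls were those of Actn1 (-0.70), Diaph1 (-0.69), Msn (-0.69), the myosin heavy chain Myh9 (-0.60), Zyx (-0.58) and Tpm3 (-0.57). In normoxia their values ran from -0.56 for Actn1 to -0.04 for Vim.

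Co-culture library 2 stood apart in single genes, several of them known from inflammation. In 26 genes outside the partner-high class it was at least 5-fold above the other 4 hypoxic libraries with at least 10 CPM, where libraries 1 and 3 had 0 such genes. Saa3, an acute-phase protein, had 2396 CPM there and at most 50.1 CPM elsewhere in hypoxia. Lcn2, which binds bacterial siderophores, had 1788 CPM against at most 20.1, Ptgs2, the inducible cyclooxygenase, 1162 against at most 142.6, and the cytokine Il6 160.1 against at most 18.1. In 25 of the 26 the normoxic co-culture library with the same number was the highest of its 5, and in 15 it was at least 5-fold above the others, with Saa3 at 3052 CPM against at most 20.1. Of the 26, edgeR called 0 and DESeq2 3 (Tpbg, Fpr1 and Gm19026), and their edgeR unadjusted p-values ran from 0.0107 for Tpbg to 0.152 for Procr. The labels do not say what libraries with the same number share.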
